A study of Mus musculus with 12 samples.

Results

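The Hox genes were described in epididymal white adipose tissue (WAT) and in both ventricles of the heart. Members were the entries of the deposited expression tables whose symbol is Hoxa, Hoxb, Hoxc or Hoxd followed by a number. This gave 39 genes in 37 entries among 23042 entries in all. There were 11 Hoxa genes, 10 Hoxb genes, 9 Hoxc genes and 9 Hoxd genes. The tables gave 1 value for Hoxb7 and Hoxb8 together and 1 for Hoxd3 and Hoxd4 together, so the levels of these 4 genes could not be separated and are uncertain for each gene. Hoxa3 to Hoxa6 had their own values but 1 locus in common (chr6:52119060-52163596, mm9), as did Hoxb3 to Hoxb6 (chr11:96154300-96209244, mm9), so how the fragments of these loci were divided among the genes is also uncertain. RNA was sequenced from 12 libraries, 3 WT and 3 MED13cTg mice for each tissue. All were male C57BL/6 littermates on normal chow, 6 weeks old by the labels, with tissue taken in the fed state in the late afternoon. MED13cTg mice carry a transgene that drives MED13, a subunit of the Mediator complex, in cardiomyocytes from a heart-specific promoter. The transgene is therefore not meant to be expressed in WAT, and the WAT comparison asks what differs in fat when the heart expresses it.

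Hox genes encode homeodomain transcription factors that give cells a positional identity along the head-to-tail axis. Mice have 4 clusters, in which the genes lie in the order of their paralogue numbers, low numbers being expressed towards the head and high numbers towards the tail. The pattern set in the embryo is largely kept in adult connective tissue and ducts, so that fat depots and the segments of the male reproductive tract each have a Hox pattern of their own. Polycomb proteins keep unused parts of the clusters silent, and Trithorax proteins keep used parts active. TALE proteins (Pbx, Meis, Pknox) bind DNA together with Hox proteins.

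The level unit is FPKM, fragments scaled to transcript length and to the number of mapped fragments, which corrects for length and so allows levels of different genes to be compared. In the heart, Med13 was 13.1, 10.6 and 11.5 FPKM in the WT libraries against 263, 181 and 204 in the MED13cTg libraries (adjusted p = 0.000281, limma). In WAT it was 9.43 to 10.9 FPKM in WT against 7.84 to 11.0 in MED13cTg libraries. The WAT libraries differed in which tissues they held. The summed FPKM of 18 epididymis markers was 84893 to 109987 in the WT libraries, 13524 in MED13cTg replicate 1, 265 in replicate 2 and 85965 in replicate 3. None of these 18 genes was listed at 0 in any WAT library. The 9 testis germ cell markers summed to 247 to 314 FPKM in WT and to 17244, 7.58 and 383 FPKM in MED13cTg replicates 1, 2 and 3. The 13 adipocyte markers, all above 0 in every WAT library, summed to 15823 to 37652 FPKM in WT and to 1655, 99836 and 20672 FPKM in the same 3 MED13cTg libraries. MED13cTg replicates 1 and 2 thus stood apart from the other 4 WAT libraries, on opposite sides for fat, and each WAT result is given with their values shown singly. In the heart, the 7 cardiomyocyte markers summed to 54715 to 83232 FPKM and the epididymis markers to 54.4 to 124 FPKM.

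Sequences are shown for the 2 pairs of microRNAs that lie inside the Hox clusters and for 3 promoters, because 1 of these microRNA genes was the member of the clusters that passed the test in WAT, and because the promoters belong to entries that lay on opposite sides of the WT mean in 1 WAT library, MED13cTg replicate 2 (Hoxb7/Hoxb8 and Hoxd8 below it, Hoxc4 above it). Mature sequences and promoters are from RefSeq (GRCm38.p6), 5′ to 3′, whereas loci of the deposited tables are on mm9. All 6 microRNA genes listed for the clusters were matched. In the microRNAs, capitals mark the seed, bases 2 to 8.
miR-196a-5p: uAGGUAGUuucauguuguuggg
miR-196b-5p: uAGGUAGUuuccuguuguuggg
miR-10a-5p: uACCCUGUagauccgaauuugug
miR-10b-5p: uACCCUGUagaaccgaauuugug

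The miR-196 sequences share the seed AGGUAGU and differ by 1 base, A12C from miR-196a to miR-196b, counted from 1 at the 5′ end. The miR-10 sequences share the seed ACCCUGU and differ by U12A from miR-10a to miR-10b. miR-196 is known to bind and cut Hoxb8 mRNA. The miR-196a sequence is made by Mir196a-1 in the Hoxb cluster (chr11:96265187-96265208, plus strand) and by Mir196a-2 in the Hoxc cluster. miR-196b is made in the Hoxa cluster between Hoxa9 and Hoxa10 (chr6:52230129-52230150, minus strand).

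The promoters span 250 bases before to 50 bases after the start of each gene, with CpG dinucleotides, the pairs that DNA methylation and many Polycomb-bound regions turn on, in capitals.
Hoxb8 (chr11:96281655-96281954, plus strand): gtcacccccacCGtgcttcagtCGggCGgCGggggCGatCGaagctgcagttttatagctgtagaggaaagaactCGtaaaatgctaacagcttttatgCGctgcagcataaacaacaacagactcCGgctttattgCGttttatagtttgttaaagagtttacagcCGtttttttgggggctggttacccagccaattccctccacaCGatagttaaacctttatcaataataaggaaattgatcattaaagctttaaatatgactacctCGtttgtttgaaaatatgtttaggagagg
Hoxd8 (chr2:74704365-74704664, plus strand): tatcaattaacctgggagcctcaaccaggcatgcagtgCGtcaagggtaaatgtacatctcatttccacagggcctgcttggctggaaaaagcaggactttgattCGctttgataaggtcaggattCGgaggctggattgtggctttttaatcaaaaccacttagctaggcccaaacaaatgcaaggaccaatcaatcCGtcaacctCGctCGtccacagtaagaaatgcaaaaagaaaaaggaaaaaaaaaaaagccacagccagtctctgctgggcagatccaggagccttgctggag
Hoxc4 (chr15:103034145-103034444, plus strand): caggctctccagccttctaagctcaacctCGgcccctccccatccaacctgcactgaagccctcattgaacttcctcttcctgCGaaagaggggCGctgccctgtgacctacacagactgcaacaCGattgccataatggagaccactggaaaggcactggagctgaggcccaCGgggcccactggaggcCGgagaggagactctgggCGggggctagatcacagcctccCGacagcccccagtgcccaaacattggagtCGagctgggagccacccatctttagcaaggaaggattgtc

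These windows held 13, 6 and 9 CpG dinucleotides for Hoxb8, Hoxd8 and Hoxc4. The median was 14.5 over the 24 promoters matched to 22 Hox genes and 7 over all 32851 promoters of the table. The Hox-Pbx motif TGATTNAT, searched on both strands, was found in the promoters of Hoxa2 and Hoxd11 and in 3.22% of all promoters. The Meis or Pknox motif TGACAG was found in those of Hoxa2 and Hoxa3 and in 19.2% of all promoters. The motifs did not overlap in Hoxa2. None of the 3 windows printed above held either motif.

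In the WT WAT libraries the Hox levels were led by the middle of the Hoxb cluster and by Hoxd8 and Hoxd9. Of the 37 entries, 25 averaged 1 FPKM or more over the 6 libraries, and 14 averaged 10 FPKM or more. By cluster, 8 of 11 Hoxa, 8 of 9 Hoxb, 5 of 9 Hoxc and 4 of 8 Hoxd entries reached 1 FPKM. The 5 entries listed at 0 in all WAT libraries lay at the 5′ end of their clusters (Hoxb13, Hoxc11, Hoxc12, Hoxd11 and Hoxd12), where the genes of the most posterior body parts are. Hoxb7/Hoxb8 was the highest entry at 343 ± 57.8 FPKM in WT (SD, n = 3), followed by Hoxb6 at 173 ± 21.5 and Hoxd8 at 96.5 ± 11.8 FPKM. The ranges of these 3 entries did not overlap in the WT libraries. Hoxd9 at 65.8 ± 7.04, Hoxd3/Hoxd4 at 60.2 ± 9.16, Hoxb9 at 56.0 ± 3.91 and Hoxb2 at 53.0 ± 11.8 FPKM came next, and each overlapped its neighbour. Hoxc8 was the highest Hoxc entry at 21.2 ± 2.52 FPKM and Hoxa5 the highest Hoxa entry at 12.8 ± 1.58 FPKM. These libraries also held epididymis RNA at the level given above, and its part in the WT levels and shares was not tested.

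**Figure D1:**
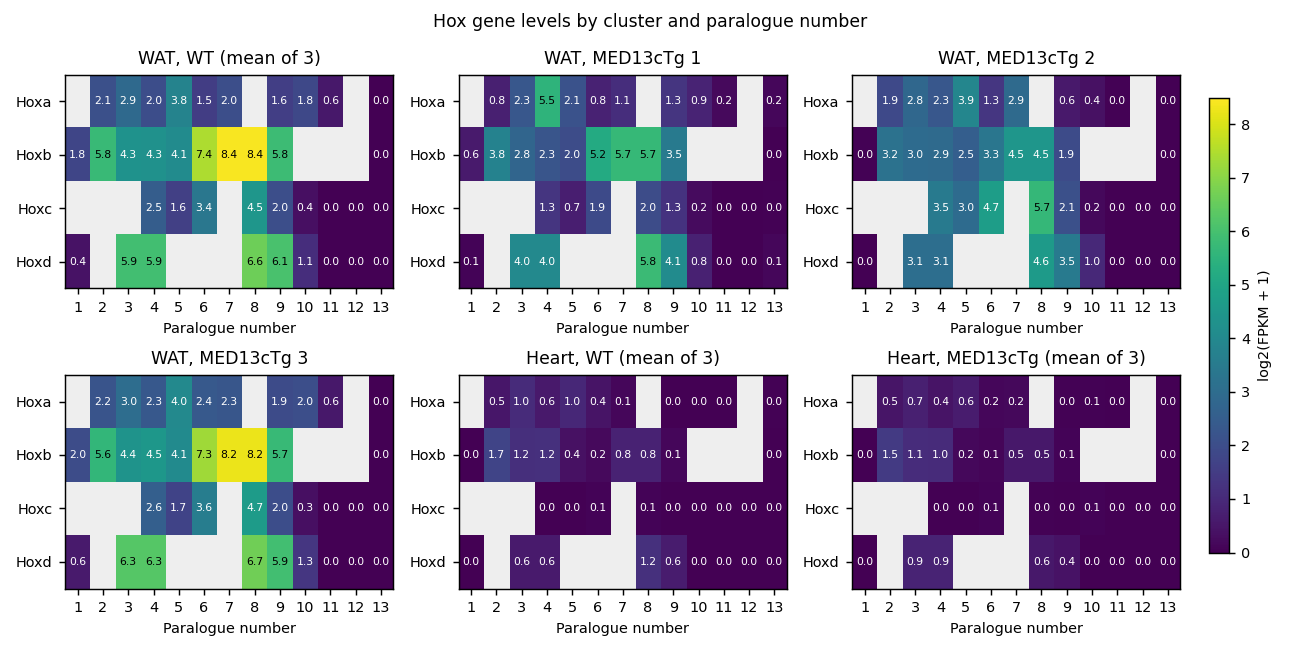
Level of each Hox entry as log2(FPKM + 1), by cluster (rows) and paralogue number (columns), for the WT mean and each MED13cTg library of WAT and for both genotype means of the heart. Grey cells have no entry or one not shown, and Hoxb7/Hoxb8 and Hoxd3/Hoxd4 fill 2 cells each with 1 value. WT and MED13cTg replicate 3 of WAT have the same bright cells, Hoxb6 to Hoxb8, whereas MED13cTg replicate 2 is highest at Hoxc8 and the heart is dark throughout.

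As a share of all Hox FPKM, the Hoxb cluster held 69.2% ± 1.72, Hoxd 22.9% ± 1.12, Hoxc 4.18% ± 0.484 and Hoxa 3.72% ± 0.706 of the WT WAT libraries (SD, n = 3). Averaged over all 6 WAT libraries the shares were 57.1% for Hoxb, 23.9% for Hoxd, 10.2% for Hoxc and 8.82% for Hoxa. By position, paralogues 4 to 8 held 71.8% ± 1.87, paralogues 9 to 13 held 13.4% ± 0.523 and paralogues 1 to 3 held 8.65% ± 1.03, with the Hoxd3/Hoxd4 entry, which spans 2 of these classes, counted apart. MED13cTg replicate 3 lay near WT, with 65.2% in Hoxb and 25.2% in Hoxd. In MED13cTg replicate 1, the library richest in testis markers, Hoxb held 44.2%, Hoxd 31.3% and Hoxa 21.1%. In MED13cTg replicate 2, the library richest in adipocyte markers, Hoxc held 40.6%, Hoxb 25.4%, Hoxd 18.0% and Hoxa 16.0%.

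Between genotypes, none of the 25 Hox entries tested in WAT passed the threshold (limma on log2(FPKM + 1), adjusted p of 0.738 to 0.985), and none had an unadjusted p under 0.05. Blocking on the replicate number left this at none called, with 4 at an unadjusted p under 0.05 (limma). Of all 14967 genes, 17 higher and 279 lower had such a p with the block. In the main fit, without the block, 0% of the 14967 genes were called higher and 0.0134% lower in MED13cTg. The fitted difference was below 0 for 20 of the 25 entries and above 0 for 5, but with array weights, which count deviating libraries less, it was below 0 for 12 and above 0 for 13, and without MED13cTg replicate 1 it was below 0 for 14 of 26. Its median was -0.45 (log2) for Hox entries and 0.01 for all genes tested. With array weights the median of the Hox entries was 0.0050, and with MED13cTg replicates 1 and 2 left out it was 0.16, so the negative median rested on these libraries. Since WAT is a mixed tissue, fewer cells of a type and less RNA per cell cannot be told apart.

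Hoxb7/Hoxb8 was 392, 279 and 358 FPKM in WT against 50.8, 21.0 and 302 in MED13cTg replicates 1, 2 and 3. Hoxb6 was 194, 151 and 173 FPKM in WT against 36.0, 9.19 and 154 in MED13cTg libraries. In both entries MED13cTg replicate 3 lay within the WT range and the other two MED13cTg libraries lay far below it. Hoxb9, the last expressed gene at the 5′ side of its cluster, was 56.5, 51.9 and 59.7 FPKM in WT against 10.2, 2.84 and 52.4 in MED13cTg libraries. Hoxb2, a gene of hindbrain identity in the embryo, was 66.6, 45.6 and 46.8 FPKM in WT against 12.6, 8.25 and 48.2 in MED13cTg libraries. The groups overlapped for all 4 entries only through MED13cTg replicate 3. Hoxb3, Hoxb4 and Hoxb5, in the middle of the cluster and named after their values were seen, were lower in MED13cTg replicate 1 (0.304, 0.201 and 0.183 of the WT mean) than in replicate 2 (0.354, 0.356 and 0.297). The fitted differences were -2.28 ± 0.96 for Hoxb7/Hoxb8, -2.16 ± 0.97 for Hoxb6, -2.11 ± 0.94 for Hoxb9 and -1.53 ± 0.65 for Hoxb2 (log2, SE), with an adjusted p of 0.738 for each (limma). With the epididymis sum as a covariate they were -0.69 ± 0.58, -0.45 ± 0.39, -0.49 ± 0.45 and -0.55 ± 0.51, in the same order. With MED13cTg replicates 1 and 2 left out they were -0.17, -0.16, -0.092 and -0.11. Without MED13cTg replicate 2 alone Hoxb7/Hoxb8 was -1.44, Hoxb6 -1.19 and Hoxb9 -1.22. Without MED13cTg replicate 3 alone these 3 entries were at -3.34, -3.15 and -3.12, and none was called.

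In the Hoxd cluster, Hoxd8 was 98.7, 83.8 and 107 FPKM in WT against 55.0, 23.6 and 101 in MED13cTg replicates 1, 2 and 3. Hoxd9 was 71.7, 58.1 and 67.7 FPKM in WT against 16.0, 10.3 and 59.4 in MED13cTg libraries. Hoxd3/Hoxd4 was 67.0, 63.9 and 49.8 FPKM in WT against 14.9, 7.35 and 76.2 in MED13cTg libraries. As for Hoxb2, Hoxb6, Hoxb7/Hoxb8 and Hoxb9, MED13cTg replicate 2 was lowest for each of the 3 entries and replicate 3 was within or above the WT range. Hoxd8 was less reduced in MED13cTg replicate 1 (0.569 of the WT mean) than Hoxd9 (0.243) and Hoxd3/Hoxd4 (0.248). The fitted difference of Hoxd9 was -1.56 ± 0.64 (log2, SE, adjusted p = 0.738, limma), and this entry had the smallest unadjusted p of all Hox entries (0.0517). It was -0.56 ± 0.47 with the epididymis sum as a covariate and -0.14 with MED13cTg replicates 1 and 2 left out.

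The Hoxc cluster, whose genes include Hoxc8, known as a gene of white rather than brown adipocyte precursors, took another course. Hoxc8 was 19.1, 20.5 and 24.0 FPKM in WT against 2.96, 49.3 and 24.2 in MED13cTg replicates 1, 2 and 3. It was thus highest in the library with the most adipocyte RNA and lowest in that with the most testis RNA. Its fitted difference was -0.37 ± 0.93 (log2, SE, adjusted p = 0.885, limma), and it was -1.13 ± 1.17 with the epididymis sum as a covariate. Hoxc4, Hoxc5 and Hoxc6, named after their values were seen, did the same, at 2.16, 3.35 and 2.72 times the WT mean in MED13cTg replicate 2 and at 0.321, 0.320 and 0.292 times in replicate 1. Hoxc9 stayed at 1.03 times the WT mean in replicate 2. Summed over the cluster, Hoxc was 39.8, 39.0 and 43.2 FPKM in WT against 9.46, 95.1 and 45.9 in MED13cTg libraries.

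In the Hoxa cluster fewer entries than in Hoxb were at least 1 below the WT mean on the log2(FPKM + 1) scale. In MED13cTg replicate 1, 2 of 8 Hoxa entries were, against all 8 Hoxb entries and 25% of all genes tested. In replicate 2, 1 of 8 was, against all 8 and 15.4%. At least 1 above the WT mean were 1 Hoxa entry in replicate 1 and 0 in replicate 2, against 28% and 10.3% of all genes. Hoxa5, a gene of lung and thoracic patterning that is also expressed in fat, was 14.0, 13.4 and 11.0 FPKM in WT against 3.39, 13.8 and 15.0 in MED13cTg replicates 1, 2 and 3. It was low in MED13cTg replicate 1 alone. Within the cluster, chosen after the values were seen, Hoxa3 and Hoxa7 were at 0.962 and 2.16 times the WT mean in replicate 2. Hoxa9, Hoxa10 and Hoxa11, of higher paralogue number, were at 0.252, 0.125 and 0.0578 times. Hoxa11 lay below the filter, at 0.186 to 0.687 FPKM in WT and 0.0268 in replicate 2. Replicate 1 did not show this split, with Hoxa3, Hoxa7, Hoxa9, Hoxa10 and Hoxa11 at 0.612, 0.379, 0.748, 0.321 and 0.356 times the WT mean. Hoxa10 and Hoxa11 are known to pattern the male and female reproductive ducts.

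Hoxa4 was the only entry past the filter whose genotypes did not overlap, in a table where 4.88% of all genes tested were higher and 7.8% lower in every MED13cTg than in every WT library. Hoxa4, which is known to be expressed in male germ cells, was 3.13, 3.34 and 2.68 FPKM in WT against 45.6, 3.93 and 4.05 in MED13cTg replicates 1, 2 and 3. The library with a value 15.0 times the WT mean was the library richest in testis markers. Replicates 2 and 3 exceeded the highest WT library by less than 1 FPKM. Its fitted difference was 1.38 ± 0.92 (log2, SE, adjusted p = 0.738, limma), and it was 0.30 without MED13cTg replicate 1 and 0.63 with array weights. The part of testis RNA in this result was not tested.

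**Figure D2:**
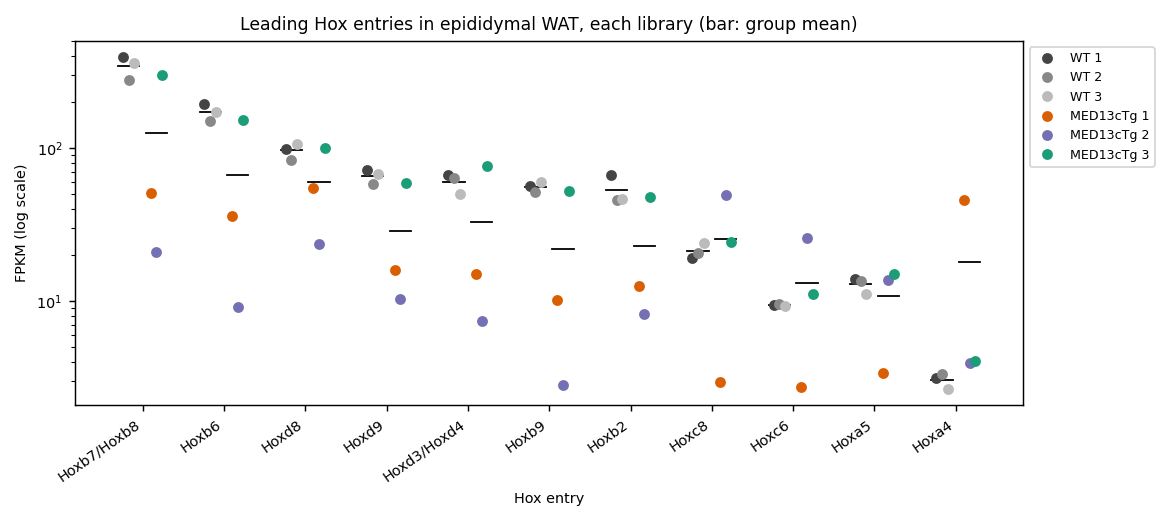
FPKM (log axis) of 11 Hox entries in each WAT library, WT in greys at the left and MED13cTg in colours at the right of each entry, with bars at the group means. MED13cTg replicate 3 sits with WT for the Hoxb and Hoxd entries, replicate 2 is lowest there and highest for Hoxc8 and Hoxc6, and replicate 1 is highest for Hoxa4.

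Each MED13cTg library was set against the WT mean on the log2(FPKM + 1) scale and entries at least 1 lower or higher were counted. With 1 library on that side this is a description with no test. In MED13cTg replicate 1, 15 of 25 Hox entries were lower, against 25% of all genes tested, and Hoxa4 alone was higher, against 28%. In MED13cTg replicate 2, 12 of 25 entries were lower, against 15.4% of all genes, and 3 were higher, against 10.3%. The 12 were all 8 Hoxb entries, 3 of the 4 Hoxd entries and 1 of the 8 Hoxa entries. The 3 were all in the Hoxc cluster, where none of the 5 entries was lower. In MED13cTg replicate 3 no Hox entry was lower or higher by this step, where 0.728% of all genes were lower and 0.474% higher. Its farthest entry was Hoxa6, 0.88 above the WT mean on this scale (named after its value was seen).

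**Figure D3:**
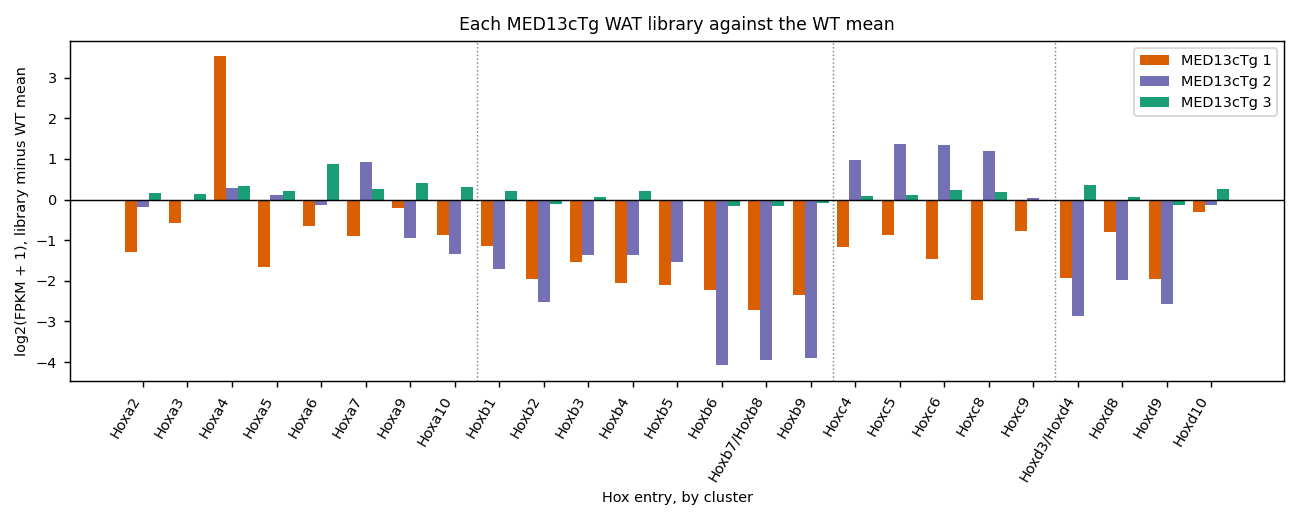
Difference of each MED13cTg WAT library from the WT mean, as log2(FPKM + 1), for the 25 Hox entries past the filter, in cluster order with dotted lines between clusters. Replicate 3 is farthest from 0 at Hoxa6 (0.88), replicate 1 is below 0 except at Hoxa4, and replicate 2 is below 0 throughout Hoxb and above 0 throughout Hoxc.

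Over the whole clusters, the Hoxb sum was 777, 581 and 687 FPKM in WT against 123, 59.6 and 616 in MED13cTg replicates 1, 2 and 3. The Hoxd sum was 239, 207 and 226 FPKM in WT against 86.8, 42.2 and 238 in MED13cTg libraries. Both sums were lowest in replicate 2, where the epididymis markers were also lowest. The Hoxa sum was 44.4, 36.4 and 28.7 FPKM in WT against 58.4, 37.4 and 44.8 in MED13cTg libraries, and 45.6 FPKM of the highest value was Hoxa4. Stromal markers, 11 genes of fat fibroblasts, summed to 808 to 1349 FPKM in WT and to 246, 2612 and 1225 FPKM in MED13cTg libraries. The Hoxc sum, but not the Hoxb or Hoxd sum, had its highest and lowest library in common with the adipocyte and stromal sums. The same held for the endothelium markers, 5 genes (54.5 to 118 FPKM in WT against 12.5, 262 and 74.2), and the macrophage markers, of which 6 were found (67.3 to 131 FPKM in WT against 41.0, 220.1 and 96.8). The smooth muscle markers, 4 genes, were 529 to 695 FPKM in WT against 172, 270 and 746 in MED13cTg libraries. The mesothelium markers, 6 genes, were 171 to 198 FPKM in WT against 51.1, 103 and 173 FPKM. The part of the epididymis and of any other cell type in the Hox differences was not tested.

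**Figure D4:**
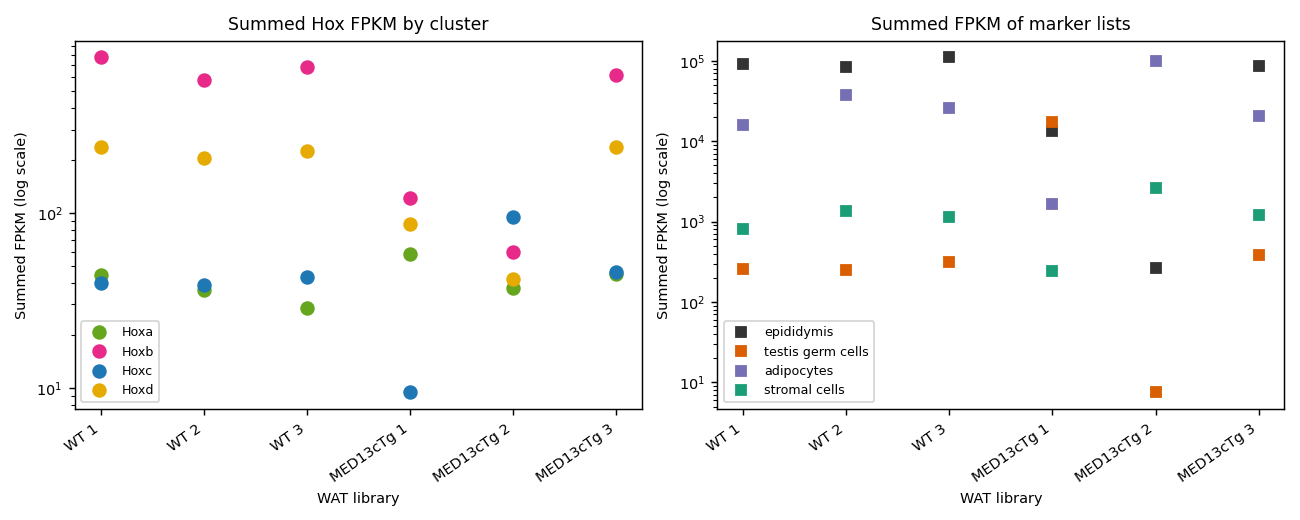
Summed FPKM (log axis) in each WAT library, of the 4 Hox clusters (left) and of 4 lists of marker genes (right). Hoxb and Hoxd are low in MED13cTg replicates 1 and 2, where the epididymis sum is 13524 and 265, and Hoxc is highest in replicate 2, where the adipocyte sum is 99836.

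Among other transcripts of the clusters, Mir196b passed the test in WAT. It was 53.9, 108 and 50.2 FPKM in WT and listed at 0 in all 3 MED13cTg libraries (adjusted p = 0.0240, limma). With the replicate number as a block it no longer passed (adjusted p = 0.385, limma), nor when any 1 library was left out (adjusted p of 0.0554 to 0.181). Nor did it pass with no filter on low values, with array weights or with the epididymis sum as a covariate, where no gene was called. The entry covers a short precursor, for which few fragments give a high FPKM, and the libraries were made for long RNA, so the values do not measure the mature microRNA printed above. Mir196a-1, which shares its seed, was 118, 68.0 and 339 FPKM in WT against 0, 82.5 and 205 in MED13cTg libraries, with overlap. Mir10a was 16.9, 16.3 and 0 FPKM in WT and listed at 0 in MED13cTg. Mir10b, named after its values were seen, was listed at 0 in every WAT library but MED13cTg replicate 3, where it was 199 FPKM. Of the 6 microRNA genes 4 were tested, and Mir196b was the 1 called. Gm53, a transcript beside Hoxb9 and the 1 tested entry of the 6 other transcripts found, was 12.2, 11.4 and 10.2 FPKM in WT against 2.23, 0.795 and 14.3 in MED13cTg replicates 1, 2 and 3 (adjusted p = 0.738, limma). It was high and low in the same libraries as Hoxb9. The other transcript named by level, 2700086A05Rik, was at or below 1.37 FPKM in each.

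None of the 9 TALE cofactor entries was called in WAT. Their median difference was -0.05 (log2). Pbx2, listed with its neighbour Gpsm3, was highest, at 30.7, 30.0 and 31.6 FPKM in WT against 12.1, 45.1 and 30.5 in MED13cTg libraries. Pbx4, a TALE gene known from testis, was 3.02, 1.20 and 1.78 FPKM in WT against 99.2, 0.998 and 2.03 in MED13cTg libraries. Pknox2 was 0.825 to 1.78 FPKM in WT against 16.4, 0.983 and 1.69 in MED13cTg libraries. Both were high in the same library as Hoxa4 and the testis markers.

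None of the 27 Polycomb, 11 Trithorax and 14 retinoic acid or Cdx genes tested in WAT was called, none had an unadjusted p under 0.05, and their median differences were 0.21, 0.04 and 0.14 (log2). Rbbp7, a histone-binding subunit of Polycomb complexes, was 235, 215 and 272 FPKM in WT against 102, 65.8 and 218 in MED13cTg libraries. Rbbp4, its close relative, was 39.2 to 47.6 FPKM in WT against 66.5, 45.1 and 39.9 in MED13cTg, and Aebp2, a partner of Polycomb repressive complex 2, was 11.0 to 17.3 FPKM in WT against 18.2, 25.1 and 16.4 FPKM. Aldh1a1, listed with E030003E18Rik and encoding a retinoic acid-making enzyme, was 659, 541 and 740 FPKM in WT against 284, 91.5 and 609 FPKM. Rbbp7 and Aldh1a1 were lowest in MED13cTg replicate 2 and next lowest in replicate 1, as Hoxb6, Hoxb7/Hoxb8 and Hoxb9 were. Of the Trithorax group, Ash2l was 15.7 to 18.2 FPKM in WT against 82.0, 18.4 and 15.8 in MED13cTg, Wdr5 was 14.9 to 17.8 and 32.8, 17.3 and 16.5 FPKM, and Dpy30 was 77.0 to 98.4 and 135, 43.1 and 74.4 FPKM. These 3 had their highest value in MED13cTg replicate 1.

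In the ventricles Hox genes were low, and Hoxb2 was the highest in WT at 2.31 FPKM. Hoxd8 (1.28), Hoxb4 (1.25) and Hoxb3 (1.22 FPKM) came next in the WT means and overlapped one another. Only 3 of the 37 entries, Hoxb2, Hoxb3 and Hoxb4, reached 1 FPKM when both genotypes were averaged, none reached 10 FPKM, and 9 were listed at 0 in all 6 libraries. No Hoxc entry exceeded a mean of 0.0585 FPKM. Hoxb held 49.9% ± 1.94, Hoxa 29.2% ± 3.24, Hoxd 19.7% ± 3.91 and Hoxc 1.20% ± 0.408 of all Hox FPKM in WT (SD, n = 3). Paralogues 4 to 8 held 46.7% ± 1.92, paralogues 1 to 3 held 42.7% ± 0.653 and paralogues 9 to 13 held 6.38% ± 1.68. The tissues were normalized separately, so these shares and the WAT shares stand side by side with no test. The summed Hox level was 13.9, 13.0 and 9.89 FPKM in WT hearts and 8.90, 9.26 and 9.05 FPKM in MED13cTg hearts, where the WAT sums were 863 to 1100 FPKM in WT.

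None of the 3 Hox entries tested in the heart passed the threshold (limma, adjusted p of 0.966 to 0.979), and none had an unadjusted p under 0.05. Over all 12589 genes tested, 0.0238% were called higher and 0.0318% lower. Hoxb2 was 2.25, 2.54 and 2.14 FPKM in WT against 1.39, 1.90 and 1.97 in MED13cTg hearts. The genotypes did not overlap for Hoxb2, where 5.85% of all genes tested were lower and 3.46% higher in every MED13cTg library, and its fitted difference was -0.27 ± 0.14 (log2, SE, adjusted p = 0.966, limma). Hoxb3 was 1.62, 1.23 and 0.812 FPKM in WT against 0.821, 1.18 and 1.37 in MED13cTg hearts, and its fitted difference of -0.06 changed sign when WT replicate 1 (0.072) or MED13cTg replicate 1 (0.051) was left out. Hoxb4, known from blood stem cells, was 1.23, 0.971 and 1.53 FPKM in WT against 1.01, 1.21 and 0.958 in MED13cTg hearts (-0.12 ± 0.15, log2, SE). Hoxb3 and Hoxb4 overlapped between genotypes.

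Below the filter, Hoxd8 was 1.11, 1.44 and 1.27 FPKM in WT against 0.620, 0.383 and 0.400 in MED13cTg hearts, without overlap. With no filter on low values its difference was -0.63 ± 0.10 (log2, SE, adjusted p = 0.391, limma), the smallest unadjusted p of the 28 Hox entries then fitted (0.000539), and it was lower in 3 of 3 libraries. At this setting none of the 28 was called, and 3 had an unadjusted p under 0.05 (limma). Of all 18875 genes fitted, 428 higher and 556 lower had such a p. Hoxd8, Hoxd9 and Hoxb2 were lower in every MED13cTg than in every WT library, where 5.26% of all 18875 genes fitted were lower and 3.8% higher in this way. Hoxd9 was 0.514, 0.484 and 0.692 FPKM in WT against 0.398, 0.366 and 0.272 in MED13cTg hearts. Hoxd9 was chosen after its values were seen.

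Hoxa3, a gene of the pharyngeal arches and their vessels, was 1.25, 1.20 and 0.756 FPKM in WT against 0.601, 0.532 and 0.858 in MED13cTg hearts. Hoxa5 was 1.08, 1.02 and 0.704 FPKM in WT against 0.453, 0.465 and 0.739 FPKM. Both overlapped between genotypes through WT replicate 3 and MED13cTg replicate 3. Hoxc6, the highest Hoxc entry, was 0.0606 to 0.0621 FPKM in WT against 0, 0.0561 and 0.111 in MED13cTg hearts, near the lowest values of the table. Adipocyte markers summed to 5157 to 5717 FPKM in WT against 4816 to 6156 in MED13cTg hearts, and stromal markers to 1155 to 1645 FPKM and 1191 to 1587 FPKM. Both lists overlapped between genotypes, and which cells of the heart expressed their genes was not tested.

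**Figure D5:**
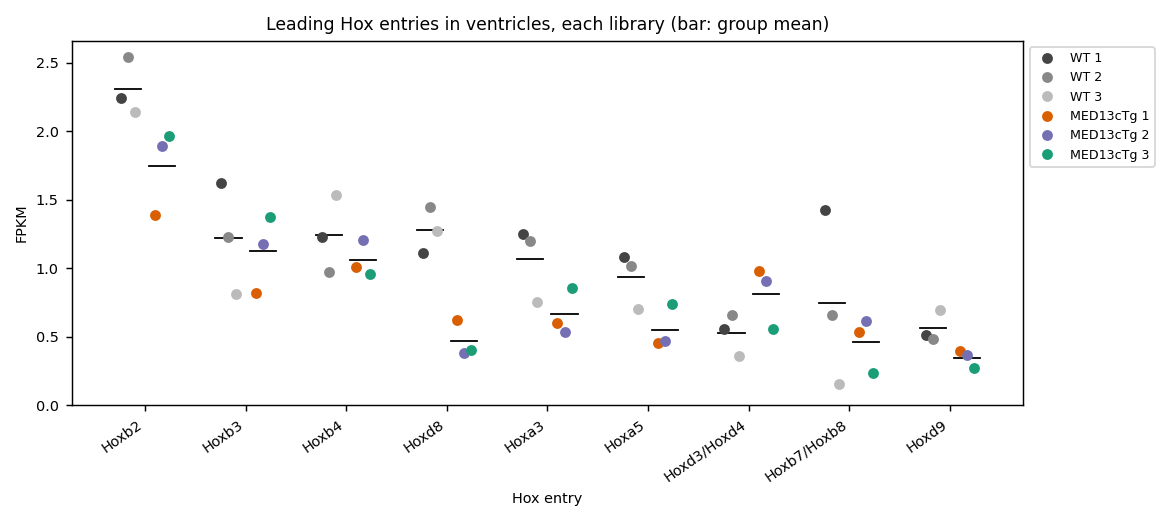
FPKM (linear axis from 0) of 9 Hox entries in each ventricle library, WT in greys at the left and MED13cTg in colours at the right of each entry, with bars at the group means. Hoxb2 is highest, Hoxd8 separates the genotypes (1.11 to 1.44 against 0.383 to 0.620), and Hoxb3, Hoxb4, Hoxa3 and Hoxa5 overlap.

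No gene of the other lists was called in the heart. Of the 8 TALE entries tested, Pknox2 was 3.37, 3.50 and 3.74 FPKM in WT against 2.24, 2.79 and 2.25 in MED13cTg hearts, and Pknox1 was 3.79, 3.48 and 3.30 FPKM in WT against 4.43, 4.42 and 4.46 FPKM. The genotypes did not overlap for either, in opposite directions, and the adjusted p was 0.945 for Pknox2 and 0.966 for Pknox1 (limma). Pbx2 with Gpsm3 was 15.0 to 18.4 FPKM in WT against 17.6 to 20.9 in MED13cTg. Aldh1a1, listed with E030003E18Rik, was 35.1, 42.8 and 40.6 FPKM in WT against 20.5, 21.1 and 30.0 in MED13cTg hearts (-0.72 ± 0.17, log2, SE, adjusted p = 0.902, limma). It was lower in 3 of 3 libraries and had the smallest unadjusted p of the 12 retinoic acid and Cdx genes tested. Dhrs3, a retinal reductase, was 61.8 to 84.6 FPKM in WT against 52.1 to 79.8 in MED13cTg, Rxrg was 44.3 to 55.2 and 41.8 to 43.4 FPKM, and Aldh1a2 was 2.12 to 2.39 and 2.25 to 4.34 FPKM.

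Of the 27 Polycomb and 11 Trithorax genes tested in the heart, none had an unadjusted p under 0.05, and the median differences were 0.04 and -0.07 (log2). Rbbp7 was 105, 115 and 123 FPKM in WT against 103, 105 and 103 in MED13cTg hearts, and Rbbp4 was 34.4 to 37.2 and 34.2 to 35.2 FPKM. Pcgf1 was 7.10 to 7.90 FPKM in WT against 8.05 to 9.57 in MED13cTg, and Ezh2, the histone methyltransferase of Polycomb repressive complex 2, was 4.58 to 6.10 and 5.17 to 7.76 FPKM. Dpy30 was 47.0 to 57.1 and 47.0 to 55.3 FPKM, Ash2l 19.2 to 22.0 and 17.6 to 19.7 FPKM, and Kdm6b, a histone demethylase, 10.2 to 11.4 and 7.64 to 10.9 FPKM. The sole microRNA gene of the clusters above 0 in the heart was Mir10a, at 30.4 FPKM in WT replicate 3 and listed at 0 in the other 5 libraries. Of the other transcripts, Gm53 was 0.408 FPKM in WT replicate 3 and 2700086A05Rik was at most 0.136 FPKM.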

How the data were processed

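RNA was measured in WAT and ventricles of WT and MED13cTg mice, 3 libraries each, grouped by the sample labels. The labels give 1 ug of RNA per library and an age of 6 weeks, and the paper's methods differ on both. Reads were mapped by the authors with TopHat, and the deposited FPKM, in 1 table per tissue, were computed with Cufflinks at default settings. The submitters' processing notes name mm9, and versions were not given in the sources used here. Strand was not used as far as the sources tell, so antisense transcripts are not separable. The authors' mean and fold columns hold their comparison and were not used, and 1 unnamed column of values in the WAT table was left out.

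Absolute depth is unknown from FPKM, so no intervals are given. Relative to WT replicate 1, judged from the lowest values, the other WAT libraries held 0.665 to 0.932 of its fragments, MED13cTg replicates 1 (0.665) and 2 (0.746) having the fewest, and the ventricle libraries 0.92 to 1.022. A value of 0 is called listed at 0.

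Within each tissue, genes averaging 1 FPKM or more in its 6 libraries were tested by limma 3.58.1 (R 4.3.3, lmFit, eBayes with trend, no covariate) after taking log2(FPKM + 1), with Benjamini-Hochberg adjustment over all genes and a threshold of 0.05. Differences are MED13cTg minus WT on that scale, which understates changes of low genes. The test was checked on simulated data in which both groups had the spread of the WT libraries. In WAT the MED13cTg spread was wider for many Hox entries (Hoxb9 SD of 3.91 FPKM in WT against 26.8 in MED13cTg). The check therefore does not tell how the test behaves with such libraries. Tables and plots used Python 3.11.15, numpy 2.4.6, pandas 2.3.3 and matplotlib 3.10.9. The highest row per symbol was to be used, and no symbol had more than 1.

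In WAT, deviations of same-numbered WT and MED13cTg libraries from their group means correlated at 0.347, 0.304 and 0.144. Differently numbered libraries correlated at -0.42 to 0.168, the highest being WT replicate 3 with MED13cTg replicate 2. The labels state no pairing. The same-numbered values were all above 0, but 0.168 exceeded the lowest of them, so they do not settle whether the libraries were paired. A block on the replicate number was therefore fitted only as an alternative. Named in each tissue were the highest entry of each cluster, the 6 highest entries, the 5 with the smallest unadjusted p and those past the filter without overlap, and for other lists the 2 highest genes, the 2 with the smallest p and those called. Some genes that these rules name are not reported here. Members, lists and rules were chosen with earlier results of these data known. Alternatives covered the pseudocount, filter, scaling, trend, array weights, block, covariates and each library left out. The labels name separate libraries, and p-values measure the spread between them.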

Additional observations from a re-analysis of the deposited data

How the results depend on the processing

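No Hox entry was called in either tissue under any alternative, and the smallest adjusted p of a named entry was 0.103 in WAT and 0.114 in the heart (limma). The median Hox difference in WAT was -1.01 (log2) with a filter at 5 FPKM, 0.0050 with array weights and 0.16 with MED13cTg replicates 1 and 2 left out. Leaving out 1 library gave medians of -0.77 to -0.14, the lowest without MED13cTg replicate 3 and the highest without MED13cTg replicate 1. Without MED13cTg replicate 3, which left replicates 1 and 2, 11 of 25 entries had an unadjusted p under 0.05 (limma). Of all 15025 genes in that fit, 575 higher and 1842 lower had such a p. Hoxa5 changed sign in WAT with array weights (0.12), without MED13cTg replicate 1 (0.16) and without replicates 1 and 2 (0.21), as did Hoxc8 (0.24, 0.69 and 0.19). With 1 library left out Hoxa5 ranged from -0.77 to 0.16 and Hoxc8 from -1.15 to 0.69. Hoxd3/Hoxd4 (0.35) and Hoxd8 (0.069) changed sign without replicates 1 and 2, and Hoxd8 (0.016) with the epididymis sum as covariate. The cause was not tested. In the heart Hoxb3 was 0.072 without WT replicate 1 and 0.051 without MED13cTg replicate 1, in a range from -0.19. All other named values kept their sign. The named Hoxb and Hoxd entries of WAT came nearer to 0 with the epididymis covariate. Hoxa4 (1.73), Hoxa5 (-0.59) and Hoxc8 (-1.13) moved away from 0 in that fit, and the median Hox difference was -0.43 (log2) against -0.45 in the main fit. The covariate varied mainly through MED13cTg replicates 1 and 2, so it cannot be told apart from other traits of these libraries.

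Of all genes in WAT, 2 were called, and 0 with no filter, array weights, the replicate block or the epididymis covariate, 19 without MED13cTg replicates 1 and 2, and 1 to 5 when 1 library was left out. In the heart 7 were called, 3 with a filter at 5 FPKM, 15 with array weights, 4 with the replicate block and 4 to 9 when 1 library was left out. Deviations of same-numbered ventricle libraries correlated at 0.0855, -0.192 and 0.14, and the block changed no Hox call. Of WAT entries, 16 had a mean of at least 5 FPKM. In the heart 16 entries had at least 0.1 FPKM, 8 at least 0.5 FPKM and 0 at least 5 FPKM, so that no Hox entry could be tested with that filter, and 5 reached 1 FPKM in WT libraries. Cluster shares of WAT moved from 8.82% to 3.72% for Hoxa, from 57.1% to 69.2% for Hoxb and from 10.2% to 4.18% for Hoxc with WT libraries alone, less than 1 SD of the 6 libraries, a spread that MED13cTg replicates 1 and 2 widen. A fit of low entries with a pseudocount of 0.1 was added after seeing the data and left Hoxd8 uncalled in the heart (-1.30, adjusted p = 0.547). Most entries of the heart lay under 1 FPKM, and how far depth limits such low values is unknown.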
